A study of Mus musculus with 3 samples.

Results

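The 475 regions described here are the open-chromatin regions that took the largest shares of counts in a mouse glioma series profiled by single-cell ATAC-seq, an assay that counts, in each barcoded nucleus, the ends that the transposase Tn5 makes where DNA is accessible. They were selected on measured counts. Peaks of the 3 libraries that overlapped by at least 1 bp were merged into 147229 regions on chromosomes 1 to 19, X and Y, and 47450 of these held a peak of every library and are called common regions below. Each library's counts in a region were divided by its total over the common regions, the 3 shares were summed, and the highest 475 sums (1.0% of the common regions) gave the members. Levels, the summed share, and every comparison of these levels with regions of lower rank are therefore descriptions of the choice, and position and sequence were not used by it. Spread over barcodes was not used directly, but counts piled up in few barcodes raise a rank.

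The series made tumors in mice by in utero electroporation with piggyBac, a transposon that inserts a plasmid's cargo into the genome. The Control library, 1 library of PDGFB-WT overexpression and 1 of PDGFB-NLS overexpression came from dissociated tissue, whose nuclei were run on the 10x Chromium system with the Next GEM ATAC chemistry, v2. All 3 libraries have the tissue label glioma, the labels do not say what the Control plasmid carried, and NLS is left as labelled. The sources used here give no strain, age, promoter or number of pooled animals. With 1 library per group nothing below has a replicate check, no difference was tested, and the exact 95% intervals cover counting error at most.

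Depth differed widely between libraries. Barcodes with at least 200 counts numbered 2226 for Control, 7441 for PDGFB-WT and 10996 for PDGFB-NLS, with medians of 13054, 821 and 2767.5 counts per barcode. Control and PDGFB-WT shared 22 of these barcode sequences, Control and PDGFB-NLS shared 45, and both PDGFB libraries shared 118. Of markers of the labelled tissue, the Gfap region held 5.55 CPM (counts scaled to a total of 1000000 over the common regions) for Control, 27.4 for PDGFB-WT and 22.5 for PDGFB-NLS. The Olig2 region, at the gene of an oligodendrocyte lineage factor, held 27.4, 27.1 and 26.8 CPM. Sox10, of the same lineage, held 17.3, 9.48 and 17.5, and Pdgfra 6.71, 9.93 and 9.77. The region at Pdgfb, the overexpressed gene, held 21.7, 11.7 and 17.02 CPM. No gene of the 12 cell type marker lists lay at a member, beside 4.03% of all protein-coding genes with a common region at an end. The lists had 2 to 12 such genes each. A count of 0 allows a share of up to 84.2% in the shortest (erythroid) and 26.5% in the longest (OPC, oligodendrocyte precursors), so it says little about markers.

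As background, most regions that are open in nearly every cell are promoters of broadly expressed genes. Such promoters are usually rich in GC and in the dinucleotide CpG, lack a TATA box, start transcription over a spread of positions and are often shared by a pair of genes that run in opposite directions. A GC box is the binding sequence of SP1 and related factors, a CCAAT box that of the trimeric factor NF-Y, and ETS, NRF1 and CRE motifs those of ETS factors, nuclear respiratory factor 1 and CREB. Sequences with many copies in a genome but few in the assembly, such as ribosomal DNA and centromeric satellite, can collect reads from all copies.

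Of the members, 413 (86.9%) lay within 1000 bp of an end of a protein-coding gene, and examples of their promoters are printed here, while the shares over all promoters at members follow. The 150 bases before the annotated start of 10 genes are given 5′ to 3′ on the strand of the gene, from RefSeq on GRCm38.p6. Capitals mark matches on either strand to the GC box GGGCGG, the CCAAT box, the ETS motif CCGGAAG, the NRF1 motif GCGCATGC, the CRE motif TGACGTCA and the YY1 motif AAGATGGCG. Matches of different motifs can overlap, as in Sp1. Sp1, Gsk3b, Wipi1, Tomm40 and Slc25a42 were picked for repeated CCAAT or GC boxes, the pairs Ubxn6 with Hdgfl2 and Fam72a with Srgap2 are divergent genes within 1 member each, and Cwc22 is the member at a coding gene end with the highest summed share.
Sp1, chr15:102406166-102406315, plus strand: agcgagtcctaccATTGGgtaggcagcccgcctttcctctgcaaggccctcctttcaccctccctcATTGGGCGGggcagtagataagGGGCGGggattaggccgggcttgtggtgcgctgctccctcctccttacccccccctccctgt
Gsk3b, chr16:38088851-38089000, plus strand: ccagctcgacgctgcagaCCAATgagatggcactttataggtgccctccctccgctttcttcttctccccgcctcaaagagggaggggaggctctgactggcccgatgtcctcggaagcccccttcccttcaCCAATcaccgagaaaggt
Ubxn6, chr17:56079334-56079483, minus strand: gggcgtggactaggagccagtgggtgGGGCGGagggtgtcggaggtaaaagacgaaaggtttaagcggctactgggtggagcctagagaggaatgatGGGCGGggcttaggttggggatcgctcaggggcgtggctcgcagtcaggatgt
Hdgfl2, chr17:56079481-56079630, plus strand: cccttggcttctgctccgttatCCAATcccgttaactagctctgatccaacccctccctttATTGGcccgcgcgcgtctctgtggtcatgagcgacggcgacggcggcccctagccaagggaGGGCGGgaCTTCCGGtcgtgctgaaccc
Srgap2, chr1:131527362-131527511, minus strand: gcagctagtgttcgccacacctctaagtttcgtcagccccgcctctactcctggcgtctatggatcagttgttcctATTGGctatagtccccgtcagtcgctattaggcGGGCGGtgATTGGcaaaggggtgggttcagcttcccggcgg
Fam72a, chr1:131527753-131527902, plus strand: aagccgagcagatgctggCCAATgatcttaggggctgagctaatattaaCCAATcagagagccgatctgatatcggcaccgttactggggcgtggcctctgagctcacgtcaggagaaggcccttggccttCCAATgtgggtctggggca
Wipi1, chr11:109611390-109611539, minus strand: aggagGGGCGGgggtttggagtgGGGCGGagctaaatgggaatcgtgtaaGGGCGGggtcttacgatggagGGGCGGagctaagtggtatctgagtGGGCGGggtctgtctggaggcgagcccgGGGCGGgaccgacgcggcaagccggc
Tomm40, chr7:19715430-19715579, minus strand: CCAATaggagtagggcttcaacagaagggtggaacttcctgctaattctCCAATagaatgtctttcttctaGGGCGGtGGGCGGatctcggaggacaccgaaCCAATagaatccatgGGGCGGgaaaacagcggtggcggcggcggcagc
Slc25a42, chr8:70212282-70212431, minus strand: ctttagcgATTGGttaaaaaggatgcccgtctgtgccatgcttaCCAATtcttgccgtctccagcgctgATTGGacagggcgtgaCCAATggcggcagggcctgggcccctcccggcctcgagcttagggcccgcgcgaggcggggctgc
Cwc22, chr2:77946357-77946506, minus strand: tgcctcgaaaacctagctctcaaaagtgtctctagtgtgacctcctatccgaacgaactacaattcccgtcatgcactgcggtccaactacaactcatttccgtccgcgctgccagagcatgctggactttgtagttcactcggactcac
The stretch of Slc25a42, a mitochondrial carrier gene, held 4 CCAAT boxes and no GC box. That of Wipi1, an autophagy gene, held 6 GC boxes on the strand of the gene and no CCAAT box. In Cwc22 none of the 6 motifs was found, which says only that these letters are not in this window.

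Over the RefSeq promoters (250 bases before to 50 after a start) whose start lay inside a member, 573 promoters of 507 genes, the CCAAT box was in 62.8% (58.7% to 66.8%). In promoters at the next ranks, 476 to 4750 of the same order, it was in 46.0%, and in all 32851 promoters of the table in 37.4%. At least 2 CCAAT boxes were in 40.8% of promoters at members, 22.2% at the next ranks and 11.7% of all. The GC box was in 83.8% (80.5% to 86.7%), against 78.0% and 35.7%. ETS motifs went the other way between members and next ranks, with 15% (12.2% to 18.2%) against 23.5%, and 8.86% of all promoters. NRF1 motifs were in 3.84% against 8.03%, with 2.71% of all, and CRE motifs in 2.27% against 5.02%, with 1.79% of all. Base composition was close in both sets, with a median GC share of 64.3% and 64.5% and a median CpG ratio (observed over expected) of 0.852 and 0.860. Over all promoters these medians were 52.7% and 0.384. Promoters can share a member, and genes of 1 family share sequence, so the promoters are not independent draws.

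Other motifs differed less between members and next ranks. The E-box CACGTG, bound by MYC and USF factors, was in 10.3% of promoters at members and 11.7% at the next ranks, with 7.15% of all. The AP-1 motif TGANTCA was in 2.62%, 3.27% and 7.81%, the YY1 motif in 3.14%, 4.71% and 1.40%, and the CTCF motif AGGNGGCAG in 3.32%, 4.07% and 3.86%. The TATA box TATAAA was in 5.06% of promoters at members, 4.14% at the next ranks and 13.6% of all. A run of 40 bases that also occurred in a promoter of another gene at least 10000 bp away was found in 2 promoters at members (0.349%). It was in 0.420% at the next ranks, 1.51% at common regions and 9.01% of all. Nearly all promoters at members thus had sequence of their own within this table, as did those at the next ranks.

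Along the whole order of common regions the CCAAT share came down to ranks 4751 to 9500 and was level after that, while the ETS share was highest in the middle of the order. CCAAT boxes were in 62.8%, 57.2%, 52.8%, 41.5%, 32.3%, 31.8% and 32.3% of promoters in regions of rank 1 to 475, 476 to 950, 951 to 1900, 1901 to 4750, 4751 to 9500, 9501 to 19000 and 19001 to 47450. ETS motifs were in 15%, 21.5%, 23.6%, 23.8%, 22.6%, 11.9% and 4.96% of the same promoters. The lowest ranks hold few promoters for their number, 2119 in 28450 regions, against 573 in the 475 members.

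**Figure D1:**
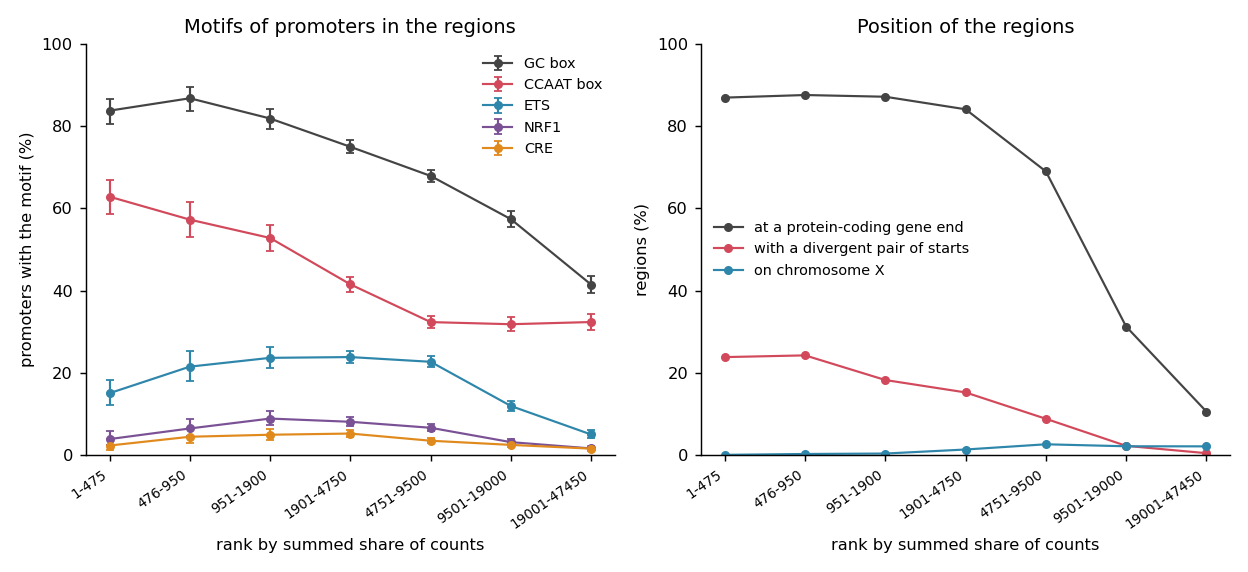
Left, share of promoters (%) that hold each motif, with exact 95% binomial intervals, by rank of the region that holds the start. Right, share of regions (%) at a coding gene end, with a divergent pair of starts within 1000 bp, and on chromosome X. CCAAT boxes go from 62.8% in the first bin to 32.3% in the last, ETS motifs are highest at ranks 1901 to 4750 with 23.8%, and no member lay on chromosome X.

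A start site lay inside 392 members (82.5%), against 77.0% of the next ranks and 22.4% of all common regions. Starts of 2 genes that run apart, each inside the region or within 1000 bp of it, were more frequent at members. They were found at 113 (23.8%) against 16.9% and 3.32%, though the ranks just below, 476 to 950, had 24.2%. The starts of such a pair were farther apart in members, with a median gap of 328 bp against 158 bp at the next ranks and 153 bp over all common regions. Among regions with a start within 1000 bp, the centre of a member lay a median of 118.5 bp upstream of the nearest start, with quartiles of 204.6 and 21 bp upstream. At the next ranks the median was 35 bp and over all common regions 10 bp upstream. Of the 413 members at coding gene ends, 371 had an annotated start of the promoter table within 1000 bp. The others include Ripk2, Hspa8, Per1 and Lars2, and the table does not list every start.

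The remaining 62 members comprised 12 at the end of a noncoding gene or pseudogene only, 38 inside a gene more than 1000 bp from an end, and 12 with no gene. Those inside genes lay in Hdac4, Tef, Sp2, Rfx1, Zbtb7a, Cirbp, Arntl and others, 14620 bp from the nearest gene end in Hdac4 (a histone deacetylase) and 28410 bp in Arntl (a circadian clock factor). The noncoding genes included Mir22hg, host of miR-22, and Chaserr, a long noncoding RNA gene.

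Members were unevenly spread over chromosomes. They made up 1.59% of the common regions of chromosome 17, 1.57% of chromosome 7 and 1.40% of chromosome 11. The lowest autosomal shares were 0.588% on chromosome 13 and 0.473% on chromosome 18. None of 949 common regions on chromosome X was a member, and none of 11 on chromosome Y. For chromosome X an approximate upper limit was a share of 0.316%. It is not an exact limit like those of the gene lists, and the exact limit is higher. Over the order of ranks the X share was 0.211% at ranks 476 to 950, 0.316% at 951 to 1900, 1.30% at 1901 to 4750 and 2.57% at 4751 to 9500.

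The median width of the members was 965 bp (953 to 989 bp), above the 929 bp (927 to 930 bp) of the next ranks and close to the 967 bp of all common regions. Widths of 1500 bp or more were found in 11 members (2.32%), 0.982% of the next ranks and 1.38% of all common regions. Only 7 joined several peaks of a library. The widest were a region without a gene on chromosome 17 (2024 bp), Ube2d3 (2000 bp, a ubiquitin-conjugating enzyme), Bhlhe40 (1835 bp, a transcription repressor of the clock), Prr14/Fbrs (1676 bp) and Mex3c (1664 bp, an RNA-binding ubiquitin ligase). The narrowest were a pair of neighbours on chromosome 2 (551 and 608 bp), Sap130 (755 bp, a subunit of the SIN3A corepressor complex), a region inside Rfx1 at chr8:84066266-84067042 (777 bp) and Ifrd1 (789 bp). Counts per kb, which follow from the rule, had a median of 155 CPM per kb for Control, 144 for PDGFB-WT and 151 for PDGFB-NLS against 81.8, 72.3 and 78.8 at the next ranks.

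The members held 8.48% (8.47% to 8.49%) of the counts of the common regions in Control, 7.67% (7.65% to 7.69%) in PDGFB-WT and 7.73% (7.72% to 7.74%) in PDGFB-NLS. Ranks chosen without the library itself gave nearly the same shares, 8.44%, 7.41% and 7.69%, which the held-out library did not help to choose. Of the members, 373 were among the 475 highest of every library ranked alone, 70 of 2 libraries and 32 of 1. Leaving Control, PDGFB-WT or PDGFB-NLS out of the ranking kept 460, 440 and 459 of them.

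The summed CPM of a member had a median of 439, quartiles of 407 and 503 and a maximum of 7769, so a few regions stood far above the rest. The threshold fell inside a dense part of the order. Just inside it were Slc22a5 (378.3), Rhob (378.1), chr6:122810646-122811617 (377.6), Sptbn4/Blvrb (377.6) and Hsph1 (377.5), and just outside it Cdk19 (377.2), chr7:73618003-73618959 (377.1), Ing2 (376.9), chr7:25281721-25283009 (376.7) and Bnip3l (375.9).

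**Figure D2:**
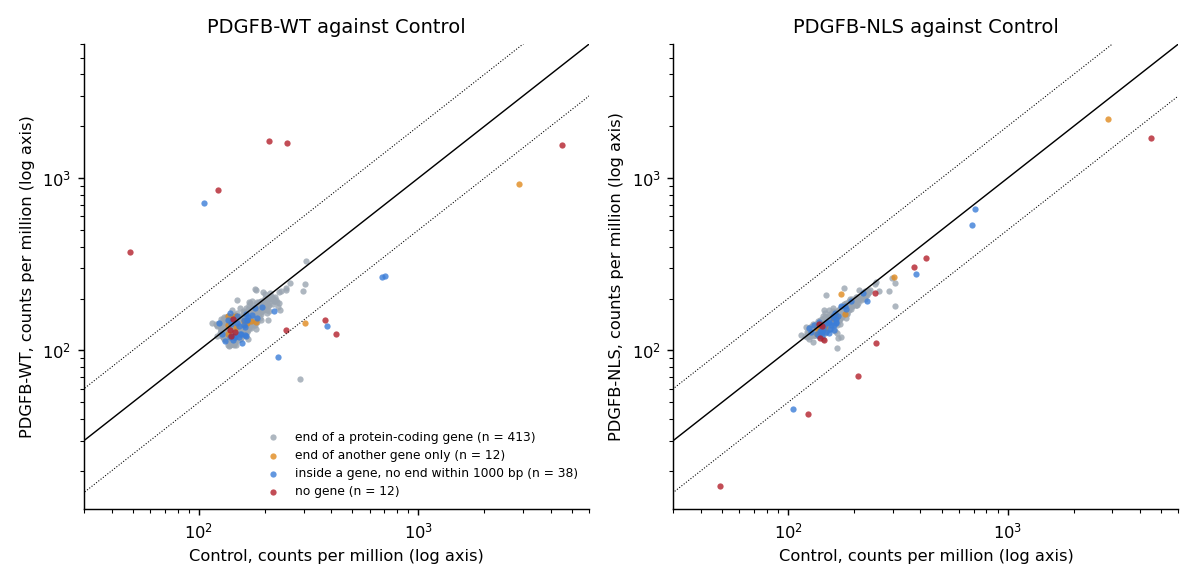
CPM of each of the 475 members in Control (horizontal, log axis) against PDGFB-WT (left) and PDGFB-NLS (right, vertical log axes), coloured by position. The solid line marks equal levels and the dotted lines 2-fold. The 413 members at coding gene ends form 1 cloud between 115 and 307 CPM in Control, and apart from Lars2 the points outside the dotted lines are members with no coding gene end within 1000 bp.

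The 10 highest members were all away from coding gene ends. The first, chr17:39842919-39844942, held 4501 CPM in Control, 1553 in PDGFB-WT and 1715 CPM in PDGFB-NLS. The second, chr17:39847476-39848855 at the long noncoding RNA gene AY036118 and the 18S ribosomal RNA pseudogene Rn18s-rs5, held 2859, 924 and 2200 CPM. Both lie within 5937 bp and are the only members with at least 4 times the median counts per kb in every library, the mark of a pileup used here. Their fold over that median was 14.3 and 13.3 for Control, 5.33 and 4.65 for PDGFB-WT and 5.61 and 10.5 for PDGFB-NLS. At 4 times in at least 1 library there were 8 such members, 4 for Control, 6 for PDGFB-WT and 3 for PDGFB-NLS.

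Next in the order were neighbours on chromosome 2 in a stretch that, as background, is known as a copy of the major satellite in the mouse assembly. The region chr2:98666829-98667436 held 251 CPM in Control, 1588 in PDGFB-WT and 111 CPM in PDGFB-NLS, and chr2:98666213-98666763 held 208, 1640 and 71.0. Farther along the same 5187 bp, chr2:98662250-98663105 held 123, 856 and 42.8 CPM and chr2:98664646-98665447, of rank 242, held 48.8, 373 and 16.4. All 4 were highest in PDGFB-WT and lowest in PDGFB-NLS. The region chr9:35304948-35305874, inside the long noncoding RNA gene Gm33838, had the same order with 106, 712 and 45.8 CPM.

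The other 4 of the first 10 ran from Control through PDGFB-NLS to PDGFB-WT. The region chr13:9011230-9012290 inside the long noncoding RNA gene Gm36264 held 707 CPM in Control, 271 in PDGFB-WT and 662 CPM in PDGFB-NLS. That at chr11:109011245-109012308, inside Gm36876, held 686, 265 and 536 CPM. The regions chr3:5860219-5861127 (423, 124 and 345) and chr19:61266373-61267277 (376, 151 and 304) had no gene within 1000 bp. PDGFB-WT was lowest in each of these.

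Among members at coding gene ends the levels were closely grouped. The median was 152 CPM in Control, 142 in PDGFB-WT and 145 CPM in PDGFB-NLS, with quartiles of 140 and 174, 129 and 161, and 135 and 168. The highest summed share was that of Cwc22, a splicing factor, with 307, 329 and 182 CPM, followed by Sp1, the GC box factor, with 306, 242 and 247 CPM, and Zbtb20, a zinc finger repressor, with 299, 221 and 262 CPM. Prr14/Fbrs, Dnpep (an aminopeptidase) and Khsrp/Slc25a41 came next, with summed CPM of 727.4, 724.6 and 723.3.

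Of 12 gene lists, those of protein folding, splicing and translation had the largest shares at members. Of all protein-coding genes with a common region at an end, 521 of 12927 (4.03%) had a member there. Of heat shock proteins and chaperones it was 10 of 38 (26.3%), of splicing factors and hnRNPs 9 of 47 (19.1%) and of translation factors 6 of 39 (15.4%). Of AP-1 and immediate early genes it was 4 of 41 (9.76%), and of long noncoding and small RNA host genes 2 of 27 (7.41%). Shares near or under the overall 4.03% were those of nuclear genes for mitochondrial proteins (2 of 44, 4.55%), MHC and interferon genes (1 of 26, 3.85%) and ribosomal protein genes (2 of 76, 2.63%). No member lay at any of 47 replication-dependent histone genes, 36 glial transcription factor genes, 33 proteasome and ubiquitin genes or 32 chromosome segregation genes. In that order a count of 0 allows shares of up to 7.55%, 9.74%, 10.6% and 10.9%, all above the overall 4.03%. All values of this paragraph are counts on chosen lists, with no test of a list.

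**Figure D3:**
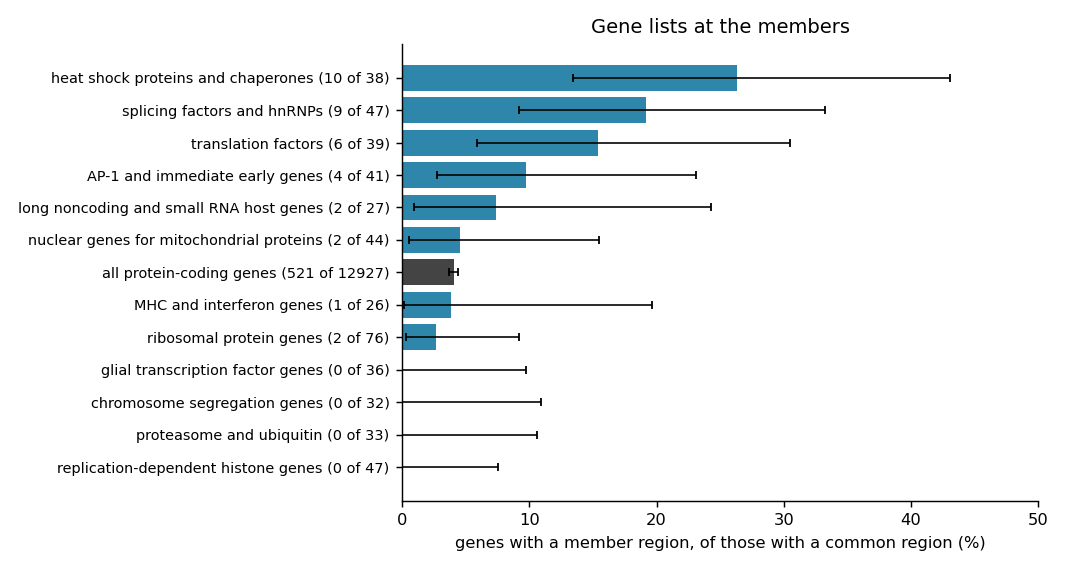
Share of the genes of each list that have a member within 1000 bp of an end (%), of those with a common region there, with exact 95% binomial intervals for counting error. The dark bar is all protein-coding genes (4.03%), heat shock proteins and chaperones reach 26.3%, and 4 lists have no gene at a member.

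The chaperone members were much alike in the 3 libraries. Hspa8, the constitutive cytosolic HSP70, held 189 CPM in Control, 191 in PDGFB-WT and 181 CPM in PDGFB-NLS. Stip1, which links HSP70 to HSP90, held 191, 167 and 182 CPM. Those of the endoplasmic reticulum were Hsp90b1, Hspa5 (139, 138 and 138), Dnajb9, Calr and Pdia4, and the cytosolic Tcp1, Hspa4 and Hsph1 completed the list. Of all 10, the largest library difference was that of Tcp1 in PDGFB-WT against Control, 0.19 on the log2 scale relative to all regions.

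Among splicing genes Sf1, the branch point binding protein, held 200, 178 and 191 CPM and Hnrnpc, which binds uridine runs in nuclear RNA, 167, 152 and 155. The others were Rbm39, Ptbp1, Hnrnpa1, Hnrnpul1, Hnrnpa2b1, Hnrnpul2 and Srsf2. Of translation factors, Eif5a, a peptide elongation factor, held 183, 223 and 184 CPM and the release factor gene Etf1 159, 133 and 150. Jun and Jund, subunits of AP-1, held 177, 164 and 158 CPM and 175, 157 and 157. The ribosomal protein members were Rps19 (185, 152 and 175) and Rpl13a (126, 131 and 122), and the class I histocompatibility gene H2-D1 held 140, 142 and 141. Mir22hg held 147, 158 and 141 CPM, Snhg8, a host of small nucleolar RNAs, 135, 124 and 125, and Atp5g1, a subunit of ATP synthase, 159, 157 and 165. Of the genes named from these lists, Hnrnpa1, Lars2 and Eif1, described below, and Eif5a (0.33 in PDGFB-WT against Control, on the centred log2 scale) were past 1.25-fold in a comparison.

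Library ratios were taken on shares of counts and centred on the median of common regions that had 100 counts or more in the shallower of both libraries. A difference of 2-fold or more from that median was called, with no test. The 3 comparisons share libraries and so are not independent. For PDGFB-WT against Control, 5 members were called higher and 10 lower, where 10.3% and 0.586% of all 18425 measured regions were called. For PDGFB-NLS against Control, none was called higher and 6 lower, where 2.29% and 0.429% of 38260 regions were. For PDGFB-NLS against PDGFB-WT, 5 were called higher and 5 lower, where 0.252% and 3.99% of 18640 regions were. The members have far more counts than most regions, and counting error is wider at low counts. At the next ranks, 0.117% of 4275 regions were called higher and 0.327% lower in PDGFB-WT against Control. Of members it was 1.05% and 2.11%. In PDGFB-NLS against Control it was 0% and 0.117% at the next ranks, and 0% and 1.26% of members. In PDGFB-NLS against PDGFB-WT it was 0.234% and 0.140%, and 1.05% and 1.05% of members.

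Of the 15 members called in any comparison, 14 were away from coding gene ends, and 2 of these lay inside coding genes (Cdk8, and Cmss1 with Filip1l). Of the 413 at coding gene ends, 390 (94.4%) were within 1.25-fold in PDGFB-WT against Control, 404 (97.8%) in PDGFB-NLS against Control and 399 (96.6%) in PDGFB-NLS against PDGFB-WT. Their medians were -0.07 (-0.08 to -0.05), -0.05 (-0.06 to -0.05) and 0.03 (0.02 to 0.05) on the log2 scale. Of the 62 elsewhere, 43, 52 and 46 were within 1.25-fold. The only call at a coding gene end was Lars2.

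**Figure D4:**
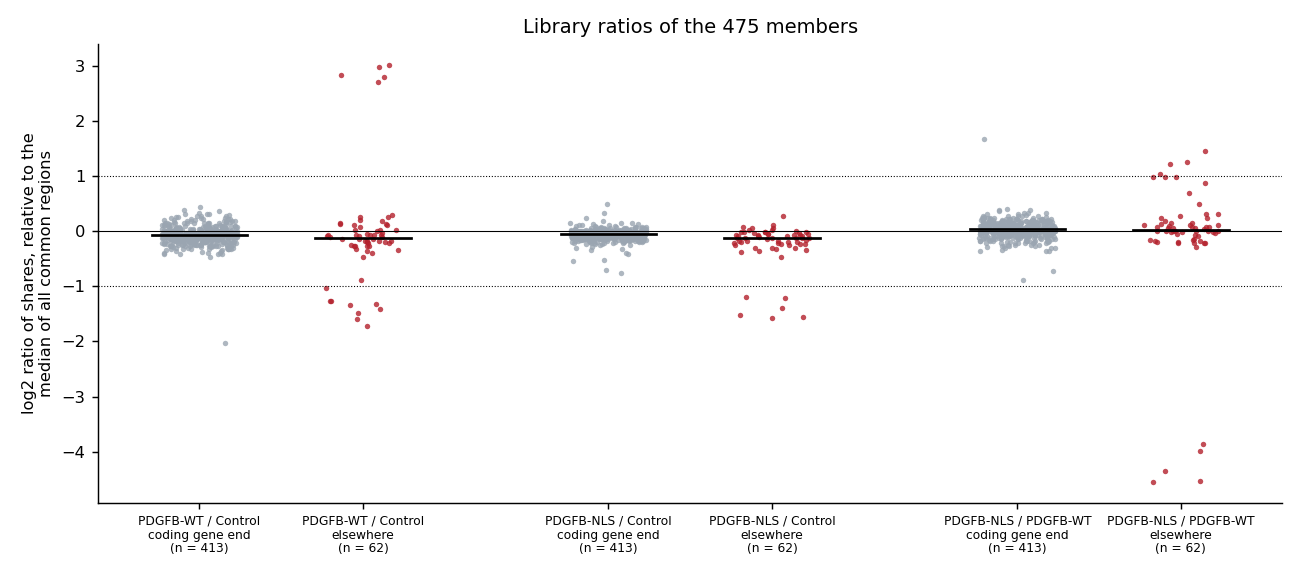
Log2 ratio of shares in each library comparison, relative to the median of all common regions, for the 413 members at coding gene ends (grey) and the 62 elsewhere (red). Bars are medians and dotted lines 2-fold. Lars2 is the 1 grey member past 2-fold, at -2.04 in PDGFB-WT against Control and 1.67 in PDGFB-NLS against PDGFB-WT, and red points reach 3.02 in the former and -4.56 in the latter.

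Lars2 encodes the leucyl-tRNA synthetase of mitochondria. Its member, chr9:123461452-123462464, lay at the end of the gene away from the start listed in the promoter table. It held 288 CPM in Control, 68.0 in PDGFB-WT and 220 CPM in PDGFB-NLS. Its log2 ratio was -2.04 (-2.23 to -1.84) in PDGFB-WT against Control and -0.39 in PDGFB-NLS against Control, and 1.67 (1.48 to 1.87) in PDGFB-NLS against PDGFB-WT. Its fragments were also the least evenly spread over Control barcodes of any member at a coding gene end, as given below.

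The 5 members called higher in PDGFB-WT were the 4 neighbours of chromosome 2 and the chromosome 9 region, at log2 ratios of 2.70 to 3.02 against Control. Against PDGFB-WT, PDGFB-NLS was lower in the same 5, at -4.56 to -3.87. Against Control, PDGFB-NLS was called lower in those 5 and in chr17:39842919-39844942, at -1.40 (-1.42 to -1.38). In that last region the called peak was 2024 bp in Control, 1891 bp in PDGFB-WT and 973 bp in PDGFB-NLS, and per kb of each library's own peak it held 2224, 821 and 1763 CPM.

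The 10 members called lower in PDGFB-WT were Lars2, both chromosome 17 regions, chr13:9011230-9012290, chr11:109011245-109012308, chr3:5860219-5861127, chr19:61266373-61267277 and 3 more. Those 3 were chr5:146260703-146261670 inside Cdk8 (384, 139 and 279 CPM), the pseudogene Gm18604 (303, 143 and 267 CPM) and chr16:57391052-57392038 inside Cmss1 and Filip1l (228, 91.7 and 192 CPM). In PDGFB-NLS against PDGFB-WT the called ones were Lars2, chr3:5860219-5861127 (1.45), chr13:9011230-9012290 (1.26), AY036118/Rn18s-rs5 (1.23) and chr16:57391052-57392038 (1.04). In every one of the 10, Control was higher than PDGFB-NLS and PDGFB-NLS higher than PDGFB-WT.

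These calls depended on how counts were taken. With each barcode's count in a region capped at 1, none of the 10 lower calls of PDGFB-WT against Control was made. Of the 475 regions ranked highest on capped counts, which include 460 of the members, 7 were called higher in PDGFB-NLS against Control. A capped count is at most 1 per barcode, and the median of all members, called or not, was in 51.5% of the deeper Control barcodes. The part of this in the changed calls was not tested. Ranked without PDGFB-WT, the highest 475 regions held 2 of the regions called higher in PDGFB-WT, where the members held 5, and ranked by the lowest of the 3 shares they held 0.

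Among members at coding gene ends some of the largest differences short of a call went with the length of the called peak and others did not. These genes were picked for their ratios after the values were seen. Eif1, which selects start codons, held 167 CPM in Control, 167 in PDGFB-WT and 103 CPM in PDGFB-NLS, where its peaks were 1152, 945 and 623 bp long. Its log2 ratio in PDGFB-NLS against Control was -0.70 (-0.80 to -0.60) on shares and 0.16 per kb of own peak. Cbx5/Hnrnpa1, the divergent genes of HP1 alpha and an hnRNP, held 174, 142 and 120 CPM over peaks of 1223, 902 and 738 bp, with -0.54 on shares and 0.16 per kb. Ing1, a chromatin reader, went from -0.52 to -0.02 and Garnl3 from -0.42 to -0.03 in the same way.

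The 3 highest ratios of PDGFB-NLS against Control at coding gene ends came with longer peaks in PDGFB-NLS. Dcaf6/Mpc2 held 149, 196 and 211 CPM over 781, 938 and 1061 bp, with 0.49 on shares and 0.02 per kb in PDGFB-NLS against Control. Camta1, a calmodulin-binding transcription factor, held 180, 227 and 229 CPM over 859, 1064 and 1156 bp, with 0.34 and -0.12. Nlgn2/Tmem256 had 0.24 and -0.21. The next, Hspa4 and Hjurp (a centromere chaperone), had 0.18 and 0.16 on shares with peaks of nearly equal length, and Hjurp had 0.13 per kb. Across the 413 members the log2 ratio of peak lengths and that of shares had a Pearson r of 0.49 and a Spearman rho of 0.33 in this comparison, and 0.26 and 0.34 in PDGFB-WT against Control, where both values come from the same libraries. In 382 members the PDGFB-NLS peak was within 1.25-fold of the Control peak in length, in 26 it was shorter, with a median ratio of -0.17, and in 5 longer, with a median of 0.24.

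Cwc22, Opn3 and Wipi1 differed with peaks of nearly equal length. Cwc22 held 307 CPM in Control, 329 in PDGFB-WT and 182 CPM in PDGFB-NLS, with peaks of 870, 867 and 862 bp. Its log2 ratio was -0.76 (-0.84 to -0.69) in PDGFB-NLS against Control and -0.88 (-0.99 to -0.78) against PDGFB-WT, and it was -0.78 per kb of own peak against Control. Its rank was 8 for Control, 8 for PDGFB-WT and 76 for PDGFB-NLS. In PDGFB-WT against Control the largest ratios at coding gene ends besides Lars2 were -0.47 at Garnl3, -0.42 at Opn3 and -0.41 at Wipi1. Per kb of own peak they were -0.02, -0.43 and -0.44. The highest were 0.44 at Dcaf6/Mpc2, 0.38 at Camta1 and 0.37 at Rbbp4/Zbtb8os, and per kb 0.15, 0.04 and 0.14.

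How a member's fragments spread over barcodes was not used by the rule directly, but is not independent of it. The rule sums uncapped counts, so counts piled up in few barcodes raise a rank. With counts capped at 1, 460 of the members stayed. A spread index gave the number of barcodes with a count over the number if its fragments fell on barcodes in proportion to depth. The median member had an index of 1.0 for Control (from 0.997), 0.997 for PDGFB-WT (0.996 to 0.998) and 1.0 for PDGFB-NLS (from 0.999), against 0.972, 0.997 and 0.995 at the next ranks. With barcodes thinned to equal depth the medians were 0.991, 0.999 and 0.997 for members and 0.996, 0.999 and 0.997 at the next ranks, so the higher Control value of members was not seen there. The median member was seen in 51.5%, 6.34% and 15.2% of barcodes, and with barcodes of at least 1000 counts thinned to 500 fragments in 6.50%, 6.58% and 5.72%. After thinning the shares lay close together.

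Members with large library ratios were among the most unevenly spread. The first region of chromosome 17 had an index of 0.796 for Control, 0.665 for PDGFB-WT and 0.666 for PDGFB-NLS, and 1 Control barcode held 824 of its counts. More than 2 fragments were found in 77.0%, 26.3% and 53.0% of the barcodes that had it, against a median member's 19.1%, 0.208% and 0.792%. The chromosome 9 region had 0.417, 0.616 and 0.845, and the chromosome 2 region of rank 242 had 0.422, 0.774 and 0.896. Lars2 had 0.633, 0.960 and 0.887. Sp1, at a like level in Control, had 1.02, 1.0 and 0.999, and Cwc22 had 0.932, 0.989 and 0.963.

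Barcode depth moved with the levels of these regions inside each library. Over 4 equal groups of PDGFB-WT barcodes from shallow to deep, the 4 chromosome 2 members held 22684, 7204, 2467 and 1461 CPM. In Control they held 3035, 1792, 380 and 187 CPM, and in PDGFB-NLS 526, 201, 194 and 214. The members at coding gene ends held 82127, 75537, 66620 and 61096 CPM in Control, 54075, 65023, 64027 and 59250 in PDGFB-WT and 76815, 66845, 61552 and 59265 in PDGFB-NLS.

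At matched depth the order of libraries changed for some sets of members and depths and not for others. Between 1000 and 2000 counts per barcode there were 126 barcodes for Control, 2461 for PDGFB-WT and 2301 for PDGFB-NLS. There the 4 chromosome 2 members held 2649 CPM (2394 to 2925) in Control, 1711 (1667 to 1757) in PDGFB-WT and 405 (382 to 429) in PDGFB-NLS, so Control was above PDGFB-WT, while PDGFB-NLS stayed lowest. The intervals at matched depth took each cut end as independent, though ends come mostly in pairs, so they are too narrow. Over all depths, 22 Control barcodes held 26.5% of the library's counts in these members. At 200 to 500 counts these 4 members held 3737, 21166 and 1521 CPM and at 500 to 1000 counts 1745, 5390 and 772. PDGFB-WT was highest there as in the whole libraries. At 2000 to 4000 counts they held 3450, 1186 and 205 CPM and at 4000 to 8000 counts 3043, 1236 and 207. In these deeper ranges Control was highest, and the last PDGFB-WT value came from 19 barcodes. The chromosome 17 pair held 3487 (3193 to 3801), 1961 (1913 to 2010) and 3444 (3377 to 3513) CPM at 1000 to 2000 counts, where the intervals of Control and PDGFB-NLS overlapped. Control was above PDGFB-NLS at 2000 to 4000 counts, with 4615 (4405 to 4833) against 3796 (3764 to 3829) CPM, and at 4000 to 8000 counts, with 5642 against 4267. In the shallower ranges this pair held 2198 (1571 to 2992), 4189 and 5729 CPM at 200 to 500 counts, with Control lowest, from 40 Control counts. At 500 to 1000 counts it held 4765, 3290 and 4276 CPM. The other 7 members away from coding gene ends called lower in PDGFB-WT held 1514, 1011 and 1947 CPM at 1000 to 2000 counts, with PDGFB-WT lowest. At 200 to 500 counts they held 1099, 1842 and 2484 CPM, with Control lowest. Lars2 held 94.6, 57.1 and 196 CPM at 1000 to 2000 counts, from 14, 185 and 564 counts. Members at coding gene ends together held 82727, 61065 and 74998 CPM at that depth, in the order of the whole libraries (66093, 61109 and 63472) and farther apart. The part of depth in the library ratios was not tested further.

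**Figure D5:**
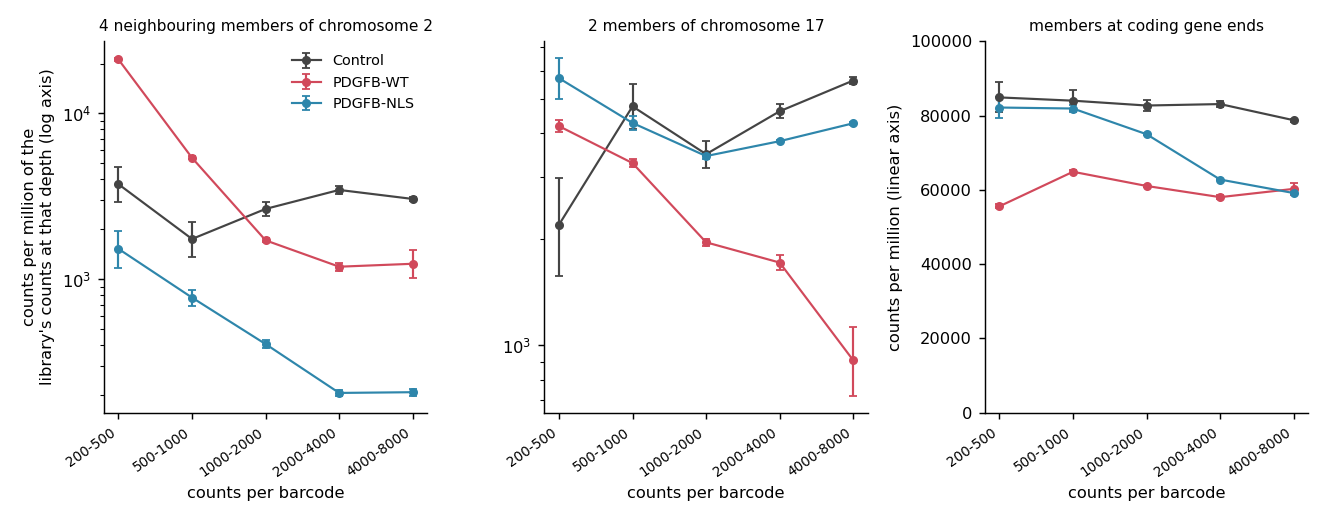
CPM of 3 sets of members among barcodes of 5 depth ranges (horizontal, counts per barcode), with exact 95% binomial intervals on cut ends. The first and second panels have log axes and the third a linear one from 0. For the 4 chromosome 2 members PDGFB-WT is highest at 200 to 500 counts (21166 CPM). It is under Control at 1000 to 2000 counts (1711 against 2649 CPM) and in the deeper ranges, and PDGFB-NLS is lowest in every range.

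Of single genes and loci fixed for naming, Lars2 was the 1 member, at rank 53. Glo1, of the methylglyoxal pathway, was at rank 809 with 149, 40.6 and 140 CPM. The region at Rpl7/Rdh10 was at rank 2550 with 92.4, 24.7 and 106 CPM, and Malat1, a nuclear long noncoding RNA gene, at rank 1329 with 93.2, 95.4 and 95.8 CPM. Regions at Olig2, Gfap, Pdgfb, Xist, Sox10, Csf1r and Pdgfra ranked between 9961 and 28966, and Cldn5 had no common region at an end.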

How the data were processed

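The deposited files give, per library, a peak list, barcodes and a matrix. The values are raw counts of cut ends per peak and barcode as the authors deposited them, made with cellranger-atac 2.1.0 per the file headers. Cell Ranger 8 and mm10 are listed in the submitters' processing notes. Settings of the peak caller are not given in the sources used. Only barcodes holding 200 counts or more were kept, and scaffolds were left out. Doublets were not called or removed, so a barcode can hold more than 1 nucleus. For the spread index, a value v stood for (v + 1) // 2 fragments. Thinning drew 500 fragments from each barcode with at least 1000 counts (seed 7). Intervals are exact at 95% (Clopper-Pearson, or ranks for medians), apart from the approximate limit given for chromosome X. Those of library ratios used fragments, while those of shares of counts and of CPM took each cut end as independent. Cut ends come mostly in pairs, so the latter intervals are too narrow. Genes and promoters came from RefSeq tables of GRCm38.p6, whose chromosome names match mm10.

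Members and lists were chosen with earlier results of these data known. Regions named were the 10 highest, every pileup, the 5 highest and 5 lowest ratios per comparison, the 5 widest and narrowest, the 5 on each side of the threshold, 2 per gene list and 12 fixed genes. Statistics were tested on simulated data. Python 3.11.15, NumPy 2.4.6, SciPy 1.17.1 and pandas 2.3.3 were used. Alternatives changed the barcode filter, the count unit, the ranking, the scaling and the thresholds. No comparison was tested, since each group had 1 library.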

Additional observations from a re-analysis of the deposited data

Results flagged for a closer look

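Counts on unplaced scaffolds lie outside the regions described above. They made up 0.1378% of all counts in PDGFB-WT (0.135% to 0.141%), above the 0.103% (0.102% to 0.104%) in Control, while PDGFB-NLS had 0.0764%. Per kb of called scaffold peaks the raw counts were 319 in PDGFB-WT, 946 in Control and 866 in PDGFB-NLS. These are not scaled to the library totals of 7018625, 31621247 and 31201469 counts, so they do not compare the libraries. The called length was 30342, 34309 and 27524 bp. With 1 library per group the difference has no replicate check.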

How the results depend on the processing

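With 1 library per group, no ratio has a replicate check. Of 191 summary values recomputed under alternatives, 138 moved by less than their counting interval or 1.5 times, and 53 moved more; the cause was not tested. The share of counts in the highest regions, given for Control, PDGFB-WT and PDGFB-NLS in turn, was 5.55%, 7.0% and 6.91% with counts capped at 1, 8.41%, 7.60% and 7.68% by fragments, and 8.28%, 7.51% and 7.61% ranked per kb. It was 8.40% and 7.23% in Control and PDGFB-WT ranked by the lowest share, 7.16% and 7.71% in PDGFB-WT and PDGFB-NLS with at least 1000 counts per barcode, and 8.498% and 7.76% in Control and PDGFB-NLS by the single highest peak. Leaving each library out of the ranking gave 8.44% to 8.52%, 7.41% to 7.70% and 7.69% to 7.77%. The median width was 934 bp ranked per kb. Regions 4 times above the median numbered 1 with at least 1000 counts per barcode, 0 with capped counts, 0 at 6 times the median and 8 reached in at least 1 library.

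Regions ranked highest on capped counts gave 0 lower in PDGFB-WT against Control, 7 higher and 0 lower in PDGFB-NLS against Control, and 1 higher in PDGFB-NLS against PDGFB-WT. Ranking by the lowest share gave 0 higher in PDGFB-WT against Control, 1 lower in PDGFB-NLS against Control, and 3 higher and 0 lower in PDGFB-NLS against PDGFB-WT. Ranked without PDGFB-WT, 2 regions were higher in PDGFB-WT against Control, 3 lower in PDGFB-NLS against Control, and 8 higher and 2 lower in PDGFB-NLS against PDGFB-WT, where ranking without Control gave 5 higher. The number higher in PDGFB-NLS against PDGFB-WT was 9 with at least 1000 counts per barcode, 8 without centring, 8 without a minimum count and 10 at 1.5-fold. At 1000 to 2000 counts per barcode, chosen after seeing the data and without centring, 11 were higher and 58 lower in PDGFB-WT against Control and 24 higher and 18 lower in PDGFB-NLS against Control, where the median member had 28 Control counts. The median spread index thinned to 1000 counts was 0.991, 0.999 and 0.997, and 0.999 in PDGFB-WT with at least 1000 counts per barcode.

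Ratios of named regions that were called changed sign 19 times over the alternatives, 13 of them with capped counts and 6 at matched depth. The ratio of PDGFB-WT against Control at chr16:57391052-57392038 is counted under both. Ratios short of a call changed sign 94 times, 33 of them with capped counts and 27 at matched depth. With capped counts PDGFB-WT against Control became 2.05 at chr17:39842919-39844942, 1.66 at AY036118/Rn18s-rs5, 0.90 at chr11:109011245-109012308, 0.70 at chr13:9011230-9012290, 0.49 at Gm18604, 0.37 at chr5:146260703-146261670, 0.26 at chr19:61266373-61267277, 0.078 at chr16:57391052-57392038 and 0.0033 at chr3:5860219-5861127. PDGFB-NLS against Control became 1.56 at the first of these, 0.44 at chr2:98666829-98667436, 0.28 at chr2:98666213-98666763 and 0.075 at chr9:35304948-35305874. At matched depth PDGFB-WT against Control became -0.94 at chr2:98662250-98663105, -0.92 at chr2:98666829-98667436, -0.84 at chr9:35304948-35305874, -0.83 at chr2:98664646-98665447, -0.067 at chr2:98666213-98666763 and 0.97 at chr16:57391052-57392038, the last from 6 Control counts. Scaling to all peaks left the centred ratios as they were by construction. No paired analysis was possible because each group had 1 library.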
